A study of Mus musculus with 9 samples.

Results

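The genes described here encode the receptors through which retinal neurons read glutamate, GABA and glycine. They were chosen by gene symbol, with earlier results of these data known: the AMPA (Gria), kainate (Grik), delta (Grid), NMDA (Grin) and metabotropic (Grm) glutamate receptors, the GABA-A (Gabra to Gabrr), GABA-B (Gabbr) and glycine (Glra, Glrb) receptors. Grm6 and Grik1, which mark bipolar cells, were left out by the rule, and both fell in both mutants. Of 49 such genes in the RefSeq gene table, 38 were measured among 24259 genes in all, each at its brightest probe set. The other 11 were not analysed here.

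Retinas of C57Bl/6x129SvJ mice were taken at postnatal day 8 from 3 genotypes. These were mice labelled Rb/p107 DKO, for loss of Rb and its relative p107 (DKO in what follows), mice labelled Rb KO, and wild type (WT). Each group had 3 arrays, which the series design calls biological replicates. The labels name no promoter or Cre driver for the deletions, so the cells that lost Rb are not known here. Values are log2 intensities of an Affymetrix whole-transcript array, and the number of arrays limits their precision.

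Photoreceptors and bipolar cells release glutamate, and amacrine and horizontal cells release GABA or glycine. AMPA and kainate receptors are fast glutamate-gated cation channels, NMDA receptors are slower channels that pass calcium, and metabotropic receptors act through G proteins. GABA-A and glycine receptors are pentameric chloride channels whose kinetics depend on their subunits. In many parts of the nervous system the glycine receptor subunit alpha-2 dominates early in life and alpha-1 and alpha-3 come later.

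Array quality set the limits of the reading. A gene was taken as above background in an array when it exceeded the 95th percentile of that array's 5222 negative controls, which lay between 7.94 and 8.50. By this measure 13 receptor genes were above background in all 9 arrays, 10 in some and 15 in none. Rb1 itself read 9.74, 10.00 and 9.85 in DKO, 9.85, 10.02 and 9.86 in Rb KO, and 10.00, 10.19 and 10.46 in WT, with log2 differences from WT of -0.36 (SE 0.117, adjusted p = 0.0423) in DKO and -0.31 (SE 0.117, adjusted p = 0.0793) in Rb KO. The deleted part of the gene is not given, so this reading does not check the labels. The p107 gene, Rbl1, was not analysed here. Arrays of the same group correlated at 0.992 to 0.998, DKO with Rb KO at 0.992 to 0.995, and the mutants with WT at 0.972 to 0.985. DKO replicate 2 stood apart in Xist (5.47, against 11.44 to 12.15 in the other arrays) and held the highest lens crystallin levels, so calls of receptor genes above background that end without it are named. All 10 measured rod genes were above background, so photoreceptor RNA was present as the retina label says.

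The receptor genes moved in both directions. Glra2 and Grik3 rose, and Glra1 and Grm5 fell, in both mutants under every alternative run. The rises of Gria3 and Grik2 in DKO and the falls of Glra3 and Gria1 in Rb KO held as widely. In DKO against WT, 8 of the 38 rose and 10 fell (adjusted p under 0.05 in limma, Benjamini-Hochberg over all genes) and 20 did not pass. That is 47.4% called, against 29.3% of all genes, of which 12.2% were higher and 17.1% lower. In Rb KO against WT, 5 rose, 12 fell and 21 did not pass, or 44.7% called, against 24.4% of all genes (10.2% higher and 14.3% lower). Genes above background were called more often in general. Of the 23 receptor genes with at least 1 array above it, 6 rose and 7 fell in DKO (56.5%, against 48.2% of all such genes, 21.3% higher and 26.9% lower). In Rb KO 3 rose and 7 fell (43.5%, against 41.6% of all such genes, 17.8% higher and 23.8% lower), so the shares lay near the background. The arrays of mutant and WT did not overlap for 22 receptor genes in DKO (43.9% of all genes) and for 22 in Rb KO (35.8%). A difference among the 3 groups was called for 18 of the 38 receptor genes, against 28.7% of all genes. The 18 include Glra4, Grin2a, Gabrb1, Gabrd, Gabre and Gabrq, above background in no array. The count is therefore not like the 48.5% called among all genes above background. The median log2 difference was -0.09 in DKO and -0.18 in Rb KO, against -0.06 and -0.05 over all genes. Both comparisons use the same 3 WT arrays, so they are not independent of each other.

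**Figure D1:**
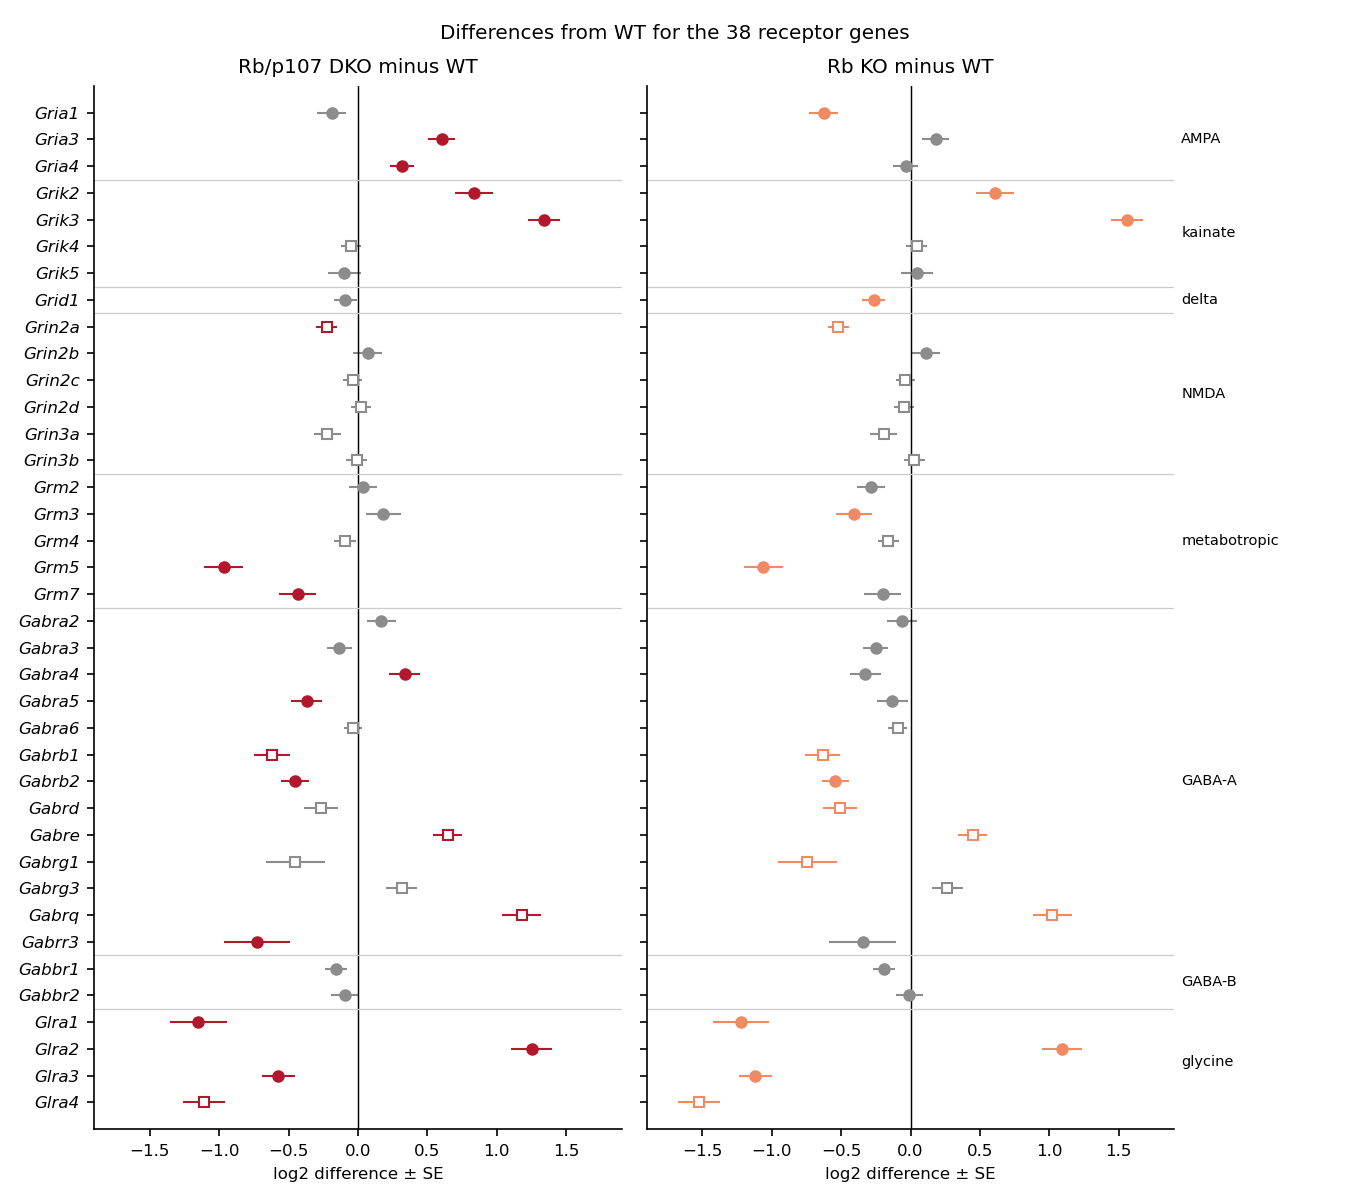
Log2 difference from WT (x axis, ± SE, 3 arrays per group) of the 38 receptor genes by class, DKO on the left and Rb KO on the right. Coloured marks passed the test, grey marks did not, and open squares are genes with no array above background in the groups compared. Grik2, Grik3 and Glra2 lie to the right in both panels, and Glra1, Glra3 and Grm5 to the left.

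Promoter sequences are shown for 4 genes that moved in both mutants. They are shown because Rb is known to act on E2F factors at promoters. RefSeq (build GRCm38.p6) listed a promoter for 28 of the 38 genes. The 250 bases before the start are given 5′ to 3′ on the strand of the gene, and capitals mark the GC box GGGCGG or its reverse complement.
Grik3, chr4:125490446-125490695, plus strand: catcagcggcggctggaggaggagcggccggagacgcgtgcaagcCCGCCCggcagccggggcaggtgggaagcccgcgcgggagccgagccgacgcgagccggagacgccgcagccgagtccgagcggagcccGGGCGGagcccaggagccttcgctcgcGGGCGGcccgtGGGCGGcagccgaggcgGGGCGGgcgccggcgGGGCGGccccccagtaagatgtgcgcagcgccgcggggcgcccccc
Grik2, chr10:49788755-49789004, minus strand: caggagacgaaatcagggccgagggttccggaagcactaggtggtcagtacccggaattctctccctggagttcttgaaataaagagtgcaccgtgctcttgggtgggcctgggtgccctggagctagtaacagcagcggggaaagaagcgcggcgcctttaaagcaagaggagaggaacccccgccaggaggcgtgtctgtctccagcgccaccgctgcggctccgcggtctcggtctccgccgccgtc
Glra2, chrX:165327394-165327643, minus strand: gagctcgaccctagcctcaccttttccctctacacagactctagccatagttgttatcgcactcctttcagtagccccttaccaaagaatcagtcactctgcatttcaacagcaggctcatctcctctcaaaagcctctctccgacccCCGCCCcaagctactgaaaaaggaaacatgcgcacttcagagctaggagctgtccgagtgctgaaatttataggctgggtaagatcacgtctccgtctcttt
Glra3, chr8:55940168-55940417, plus strand: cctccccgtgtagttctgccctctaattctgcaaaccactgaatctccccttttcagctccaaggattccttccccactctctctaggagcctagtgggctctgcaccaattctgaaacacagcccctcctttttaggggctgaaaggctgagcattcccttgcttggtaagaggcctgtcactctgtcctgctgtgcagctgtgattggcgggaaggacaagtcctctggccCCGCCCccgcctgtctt

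The Grik3 window was 82.0% G and C with 42 CG pairs and 6 GC boxes, that of Grik2 62.8% with 20 CG pairs and no GC box. The windows of Glra2 (50.4%, 8 CG pairs) and Glra3 (56.0%, 4 CG pairs) held 1 GC box each. The median over all 32851 listed promoters was 52.4% with 6 CG pairs, and over the 28 receptor genes at their first listed start 61.6% with 9. A GC box stood in 17 of the 28 genes at any listed start, against 35.4% of all 27025 genes with a listed promoter, counted the same way. The E2F octamers TTTCCCGC, TTTGGCGC, TTTCGCGC and TTTGCCGC, searched on both strands, were in none of the 28, and in 1.03%, 0.485%, 0.3% and 0.392% of all genes. The photoreceptor factor core TAATCC stood in Gabra2 alone (7.21% of all genes), and TTCAGCACC, the left part of the REST site, in Grm2 alone (0.348%). Each motif was searched on its own, on both strands, so that matches of different motifs may overlap. A match or its lack describes the letters of this window only.

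All 4 measured glycine receptor alpha subunit genes passed in both mutants, with Glra2 higher and Glra1, Glra3 and Glra4 lower. Glra2 encodes alpha-2, a subunit abundant in amacrine cells and in the young nervous system. Its log2 intensities were 10.98, 11.24 and 11.05 in DKO, 10.88, 11.23 and 10.68 in Rb KO, and 9.63, 10.05 and 9.84 in WT. Every mutant array lay above every WT array. The log2 difference from WT was 1.25 (SE 0.146, adjusted p = 1.16e-04) in DKO, a 2.38-fold rise, and 1.09 (SE 0.146, adjusted p = 3.77e-04) in Rb KO, a 2.13-fold rise.

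Glra1 encodes alpha-1, the subunit of fast glycine responses in bipolar and ganglion cells. It read 6.97, 7.85 and 7.26 in DKO, 7.17, 7.09 and 7.61 in Rb KO, and 8.51, 8.68 and 8.34 in WT. Only the WT arrays were above background. The fitted log2 differences from WT were -1.15 (SE 0.205, adjusted p = 0.00171) in DKO and -1.22 (SE 0.205, adjusted p = 0.00155) in Rb KO. Because the mutant readings are background, the measured fall is a bound from group means, 1.10-fold in DKO and 1.09-fold in Rb KO. That bound sets the WT mean against the mean, over mutant arrays, of the larger of the percentile and the reading of the gene. Such bounds, here and below, carry no error of their own and are not confidence limits. In DKO the fitted difference was -1.40 without DKO replicate 2.

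Glra3 encodes alpha-3, a subunit of amacrine cell synapses in the inner retina. It read 8.80, 9.07 and 8.96 in DKO, 8.11, 8.55 and 8.53 in Rb KO, and 9.48, 9.54 and 9.53 in WT. The 3 groups did not overlap, with DKO between Rb KO and WT, and Rb KO replicate 1 was not above background. It fell by 0.57 on the log2 scale in DKO (SE 0.117, adjusted p = 0.00392) and by 1.12 in Rb KO (SE 0.117, adjusted p = 7.68e-05). The DKO call ended when control separation, the gap of positive over negative controls in an array, was added to the fit (adjusted p = 0.0563). Control separation was 0.932 to 0.954 in WT, 0.928 to 0.935 in Rb KO and 0.927 to 0.936 in DKO. It thus partly followed genotype, and calls lost in this fit cannot be assigned to array quality rather than to that overlap. Glra4, which encodes alpha-4, was above background in no array, and its calls rest on background readings of 5.77 to 6.28 in DKO, 5.47 to 5.73 in Rb KO and 6.88 to 7.42 in WT.

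**Figure D2:**
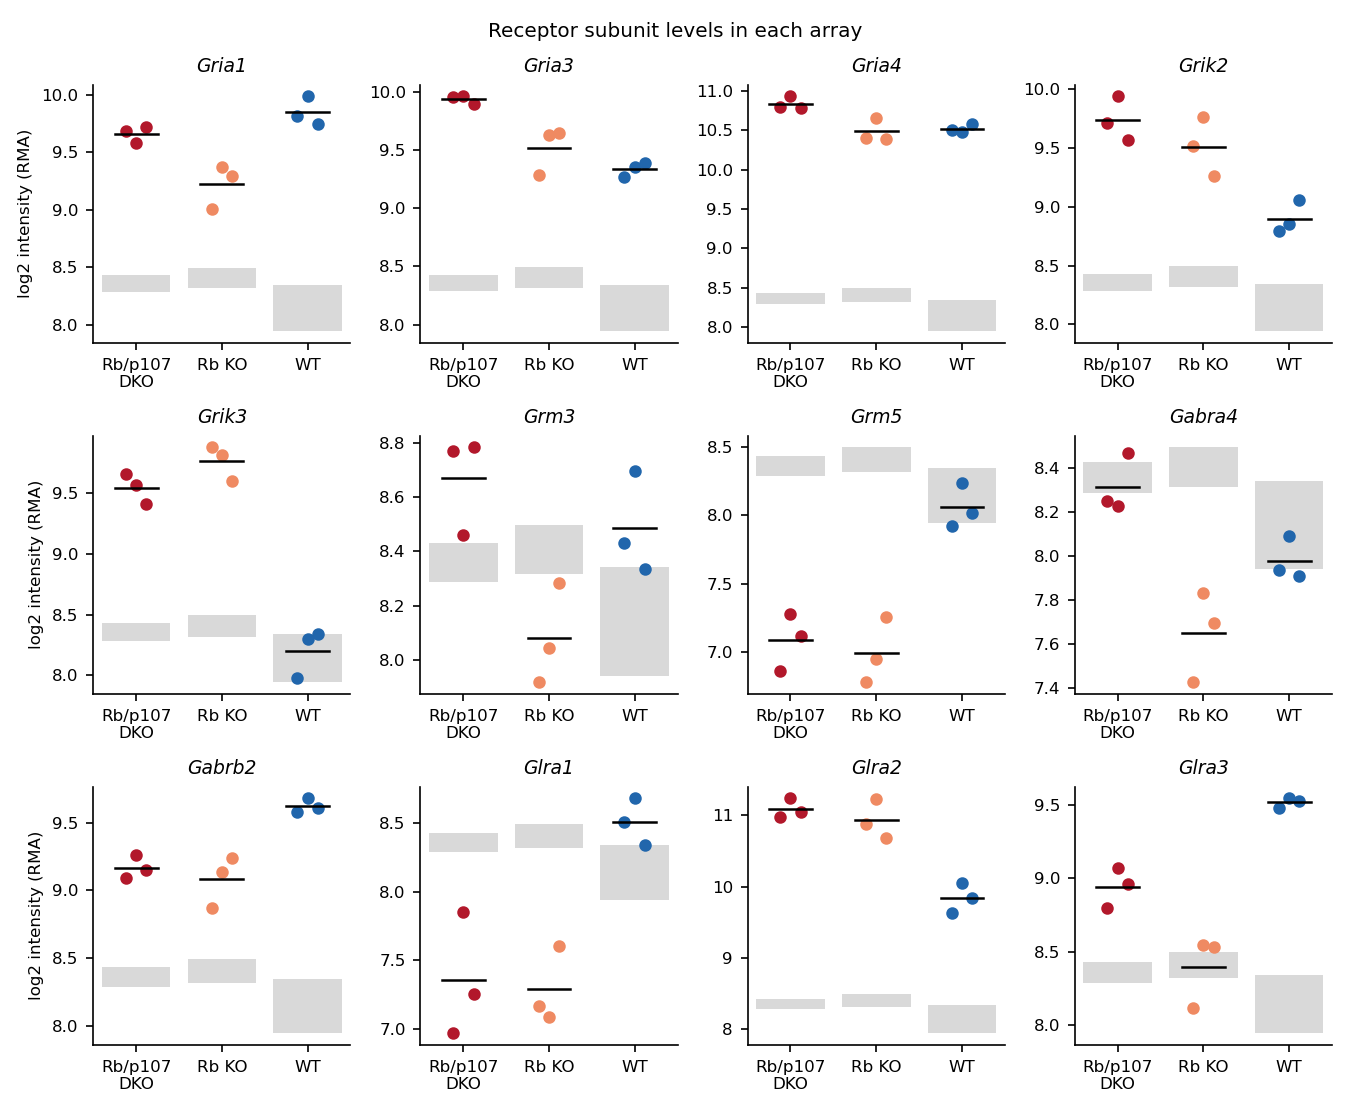
Log2 intensity (y axis) of 12 receptor genes in each array for DKO, Rb KO and WT, with bars at the group means. Grey boxes span the 95th percentile of the negative controls in the arrays of each group. Each panel has its own scale. The mutant arrays of Glra2, Grik2 and Grik3 lie above all WT arrays, and those of Glra1, Glra3, Grm5 and Gabrb2 below them.

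Among the 4 kainate receptor genes, Grik2 and Grik3 rose in both mutants and Grik4 and Grik5 did not pass. Grik3 encodes GluK3, a subunit of low glutamate sensitivity. It read 9.65, 9.56 and 9.41 in DKO, 9.88, 9.82 and 9.60 in Rb KO, and 7.97, 8.30 and 8.34 in WT. All mutant arrays were above background, but only 1 WT array was. The log2 difference from WT was 1.34 in DKO (SE 0.115, adjusted p = 1.34e-05) and 1.56 in Rb KO (SE 0.115, adjusted p = 6.02e-06), which are the largest rises of a receptor gene in each comparison. Because 2 of 3 WT arrays were not above background, no fold is given.

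Grik2 encodes GluK2, a principal subunit that also forms channels with GluK5. It read 9.71, 9.93 and 9.56 in DKO, 9.51, 9.76 and 9.26 in Rb KO, and 8.79, 8.85 and 9.05 in WT. The mutant arrays lay above all WT arrays, and the DKO and Rb KO ranges overlapped. The rise was 0.84 in DKO (SE 0.136, adjusted p = 9.49e-04) and 0.61 in Rb KO (SE 0.136, adjusted p = 0.00776), of which the Rb KO call ended with control separation in the fit (adjusted p = 0.0735). Grik5, the partner subunit GluK5, averaged 9.19 in DKO, 9.33 in Rb KO and 9.29 in WT (adjusted p = 0.589 and 0.826 against WT). Grik4 was above background in no array.

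The AMPA receptor genes did not move together. Gria1 (GluA1) read 9.68, 9.58 and 9.72 in DKO, 9.01, 9.38 and 9.29 in Rb KO, and 9.82, 9.99 and 9.75 in WT. Its Rb KO arrays lay below all others. It fell by 0.62 in Rb KO (SE 0.104, adjusted p = 0.00151) and stood at -0.19 in DKO (SE 0.104, adjusted p = 0.208).

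Gria3 (GluA3) read 9.96, 9.96 and 9.90 in DKO, 9.29, 9.63 and 9.64 in Rb KO, and 9.27, 9.35 and 9.39 in WT. The DKO arrays were the highest, and Rb KO overlapped WT through replicate 1. It rose by 0.60 in DKO (SE 0.097, adjusted p = 8.97e-04) and stood at 0.18 in Rb KO (SE 0.097, adjusted p = 0.210). Gria4 (GluA4) read 10.81, 10.94 and 10.78 in DKO, 10.41, 10.66 and 10.40 in Rb KO, and 10.51, 10.48 and 10.58 in WT. Its DKO arrays were again the highest. It rose by 0.32 in DKO (SE 0.089, adjusted p = 0.0205) and stood at -0.03 in Rb KO (adjusted p = 0.832). The Gria4 call ended without DKO replicate 2 (adjusted p = 0.0841), DKO replicate 1 (adjusted p = 0.0509) or WT replicate 1 (adjusted p = 0.0574), and with control separation in the fit (0.27, adjusted p = 0.143).

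NMDA receptor genes gave little signal. Of 6 measured members only Grin2b, the GluN2B subunit of young synapses, had any array above background, 4 of 9. It read 8.33, 8.40 and 8.32 in DKO, 8.42, 8.40 and 8.34 in Rb KO, and 8.23, 8.53 and 8.08 in WT. The groups overlapped, and it did not pass against WT (adjusted p = 0.656 and 0.509). Without WT replicate 2 it passed as higher in Rb KO (0.23, adjusted p = 0.0424). Grin2a was called lower in both mutants, but on background readings of 7.05 to 7.21 in DKO, 6.81 to 6.88 in Rb KO and 7.27 to 7.45 in WT. Grin2c, Grin2d, Grin3a and Grin3b did not pass in any comparison. Grid1, a delta receptor of synapse organization, read 8.08, 8.17 and 8.26 in DKO, 8.08, 7.96 and 7.95 in Rb KO, and 8.20, 8.39 and 8.20 in WT. DKO overlapped WT, Rb KO lay below it, and 2 WT arrays were above background. Its fall of 0.27 in Rb KO (SE 0.083, adjusted p = 0.0403) was not called in 12 of 17 alternatives, among them the removal of any DKO replicate, Rb KO replicate 2 or 3, or WT replicate 1 or 2 (adjusted p = 0.0529 to 0.123), or control separation in the fit (-0.20, adjusted p = 0.203).

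Of 5 measured metabotropic glutamate receptor genes, 2 fell and none rose against WT in each mutant. Grm5, a group I receptor that raises calcium through Gq, read 6.87, 7.28 and 7.12 in DKO, 6.78, 6.95 and 7.25 in Rb KO, and 7.92, 8.23 and 8.02 in WT. The mutant arrays lay below all WT arrays, but a single WT array was above background. The fitted difference was -0.97 in DKO (SE 0.140, adjusted p = 4.62e-04) and -1.06 in Rb KO (SE 0.140, adjusted p = 3.43e-04), and no measured fold can be given.

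Grm7, a group III receptor of presynaptic terminals, read 8.45, 8.39 and 8.44 in DKO, 8.43, 8.55 and 8.99 in Rb KO, and 8.68, 8.99 and 8.90 in WT. DKO lay below all WT arrays, and Rb KO overlapped them. It fell by 0.43 in DKO (SE 0.133, adjusted p = 0.0314), not called on removal of any DKO array or of WT replicate 2 or 3 (adjusted p = 0.0722 to 0.0838) nor with control separation in the fit (-0.34, adjusted p = 0.223), and stood at -0.20 in Rb KO (adjusted p = 0.324). Grm2, a group II autoreceptor, read 9.23, 9.07 and 9.36 in DKO, 9.02, 8.80 and 8.88 in Rb KO, and 9.10, 9.33 and 9.12 in WT. Its Rb KO arrays were the lowest, but it did not pass (adjusted p = 0.827 in DKO and 0.0610 in Rb KO). It passed in Rb KO when dim genes were left out (adjusted p = 0.0292). Grm4 was above background in no array.

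Among 13 measured GABA-A receptor genes, 3 rose and 4 fell in DKO, and 2 rose and 4 fell in Rb KO. Only 6 had an array above background, of which 66.7% were called in DKO and 16.7% in Rb KO, against 48.2% and 41.6% of all such genes, and 5 of the 6 Rb KO calls were background readings. The other 7 (Gabra6, Gabrb1, Gabrd, Gabre, Gabrg1, Gabrg3 and Gabrq) were above background in no array. Gabrb2, the beta-2 subunit of many synaptic receptors, read 9.09, 9.26 and 9.15 in DKO, 8.87, 9.14 and 9.24 in Rb KO, and 9.58, 9.68 and 9.61 in WT. Both mutants lay below all WT arrays and overlapped each other. It fell by 0.45 in DKO (SE 0.098, adjusted p = 0.00544) and by 0.54 in Rb KO (SE 0.098, adjusted p = 0.00247). The DKO call ended with control separation in the fit (adjusted p = 0.0707). Against a 1.2-fold minimum neither call held (adjusted p = 0.258 in DKO and 0.0975 in Rb KO).

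Gabra4, the alpha-4 subunit of extrasynaptic receptors, read 8.25, 8.23 and 8.47 in DKO, 7.43, 7.83 and 7.70 in Rb KO, and 7.94, 8.09 and 7.91 in WT. The groups did not overlap, with DKO highest and Rb KO lowest, but only 1 DKO and 1 WT array were above background. It was called higher in DKO against WT (0.34, SE 0.112, adjusted p = 0.0425), but not in 9 of 17 alternatives, among them the removal of any DKO array, WT replicate 1 or 3, or replicate 3 of Rb KO (adjusted p = 0.0562 to 0.161). In Rb KO it stood at -0.33 (adjusted p = 0.0561). Gabrr3, a rho subunit of slow GABA receptors, read 8.74, 9.42 and 8.90 in DKO, 8.96, 9.44 and 9.80 in Rb KO, and 9.82, 10.06 and 9.35 in WT. All 3 groups overlapped. It was called lower in DKO (-0.73, SE 0.241, adjusted p = 0.0429), lost in 10 of 18 alternatives, among them the removal of DKO replicate 1 or 3, WT replicate 1 or 2, or replicate 2 of Rb KO (adjusted p = 0.0617 to 0.149). With control separation in the fit it stood at -0.35 (adjusted p = 0.428). In Rb KO it stood at -0.34 (adjusted p = 0.353).

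Gabra5, an extrasynaptic alpha subunit, read 7.68, 7.74 and 7.86 in DKO, 7.87, 7.88 and 8.25 in Rb KO, and 8.09, 8.28 and 8.02 in WT. DKO lay below all other arrays, and 1 WT array was above background. It was called lower in DKO (-0.37, SE 0.114, adjusted p = 0.0316), but not on removal of DKO replicate 1 or 2 or WT replicate 1 or 2 (adjusted p = 0.0591 to 0.111). With control separation in the fit it stood at -0.19 (adjusted p = 0.342). Gabra2 and Gabra3, above background in all arrays, did not pass. Gabra2 read 10.29, 10.13 and 10.46 in DKO, 9.86, 10.15 and 10.17 in Rb KO, and 10.18, 10.06 and 10.13 in WT, with overlap of all groups. Gabra3 averaged 9.82 in DKO, 9.70 in Rb KO and 9.95 in WT. A second Gabra2 probe set was also above background in all arrays.

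Among the background readings, Gabrb1 was called lower in both mutants and Gabrd and Gabrg1 in Rb KO, while Gabre and Gabrq were called higher in both. Gabrq, the theta subunit, read 6.51 to 6.71 in DKO, 6.23 to 6.57 in Rb KO and 5.17 to 5.72 in WT. Gabrg1 in Rb KO held 1 low array, 6.51 in replicate 1 beside 7.50 and 7.50. No size was measured for these genes. The GABA-B receptor genes Gabbr1 and Gabbr2, whose products form an obligate pair coupled to G proteins, were above background in all arrays and did not pass. Gabbr1 averaged 9.93 in DKO, 9.90 in Rb KO and 10.09 in WT, with DKO below all WT arrays. Gabbr2 read 10.31, 10.52 and 10.48 in DKO, 10.61, 10.50 and 10.45 in Rb KO, and 10.41, 10.73 and 10.46 in WT, with overlap of all groups.

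Some receptor genes lie next to each other. On chromosome 5, Gabrg1 and Gabra2 are adjacent, as are Gabra4 and Gabrb1, with a single protein-coding gene between the pairs. In DKO, Gabra4 was called higher, Gabrb1 was called lower, and Gabra2 and Gabrg1 did not pass. In Rb KO both Gabrg1 and Gabrb1 were called lower, and Gabra2 and Gabra4 did not pass. On chromosome 11 Glra1 and Gria1 are separated by 1 protein-coding gene, and in DKO Glra1 was called lower and Gria1 did not pass, while in Rb KO both were called lower. The X chromosome held 6 of the measured receptor genes, of which Gria3, Glra2, Gabre and Gabrq were called higher and Glra4 lower in DKO, and all but Gria3 also in Rb KO. Of 1826 X-linked genes 11.5% were higher and 13.4% lower in DKO, and 9.31% and 11.7% in Rb KO. Of the 32 autosomal receptor genes, 4 were higher and 9 lower in DKO (12.5% and 28.1%, against 12.3% and 17.5% of all autosomal genes), and 2 were higher and 11 lower in Rb KO (6.25% and 34.4%, against 10.3% and 14.5%). This grouping was chosen after the values were seen. DKO replicate 2, with low Xist, read 11.24 for Glra2 and 9.96 for Gria3, beside 10.98 and 11.05 for Glra2 and 9.96 and 9.90 for Gria3 in the other DKO arrays.

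Between the mutants, 3 receptor genes were higher in DKO than in Rb KO and none was lower, with 35 that did not pass. Over all genes 2.5% were called, 1.3% higher and 1.2% lower. The 3 were among 19 receptor genes with an array above background in these groups, and of all such genes 4.72% were called, 2.37% higher and 2.35% lower. They were Gabra4 (0.66, SE 0.112, adjusted p = 0.0114), Grm3 (0.59, SE 0.129, adjusted p = 0.0399) and Glra3 (0.55, SE 0.117, adjusted p = 0.0368).

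Grm3, a group II receptor that lowers cAMP, read 8.77, 8.46 and 8.78 in DKO, 7.92, 8.04 and 8.28 in Rb KO, and 8.43, 8.70 and 8.34 in WT. Its Rb KO arrays lay below all others and none was above background. The bound from group means was 1.22-fold higher in DKO than in Rb KO. Against a 1.2-fold minimum this difference was not called (adjusted p = 0.823). Against WT Grm3 was called lower in Rb KO (-0.41, SE 0.129, adjusted p = 0.0418), with a bound of 1.07-fold. That call was lost in 11 of 18 alternatives. They included removal of DKO replicate 1 or 3, Rb KO replicate 1 or 2, or WT replicate 1 or 2. Adjusted p was 0.0528 to 0.146 on these removals. With control separation in the fit it stood at -0.19 (adjusted p = 0.315). In DKO it stood at 0.18 (adjusted p = 0.326).

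The AMPA receptor genes lay just outside the threshold between the mutants: Gria3 at 0.42 (SE 0.097, adjusted p = 0.050009), Gria1 at 0.44 (SE 0.104, adjusted p = 0.0588) and Gria4 at 0.35 (SE 0.089, adjusted p = 0.0725). For each of these 3 genes every DKO array lay above every Rb KO array. That held for 10 of the 38 receptor genes, in either direction, and for 22.1% of all genes. Each of the 3 calls was lost on leaving out some array. Gabra4 was lost without DKO replicate 3 (adjusted p = 0.0600). Grm3 was lost without DKO replicate 1 or 3, replicate 1 or 2 of Rb KO, or WT replicate 1 (adjusted p = 0.0560 to 0.164). Glra3 was lost on removal of any DKO array, replicate 1 or 3 of Rb KO, or WT replicate 1 or 3 (adjusted p = 0.0535 to 0.135), so no receptor difference between the mutants held throughout.

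**Figure D3:**
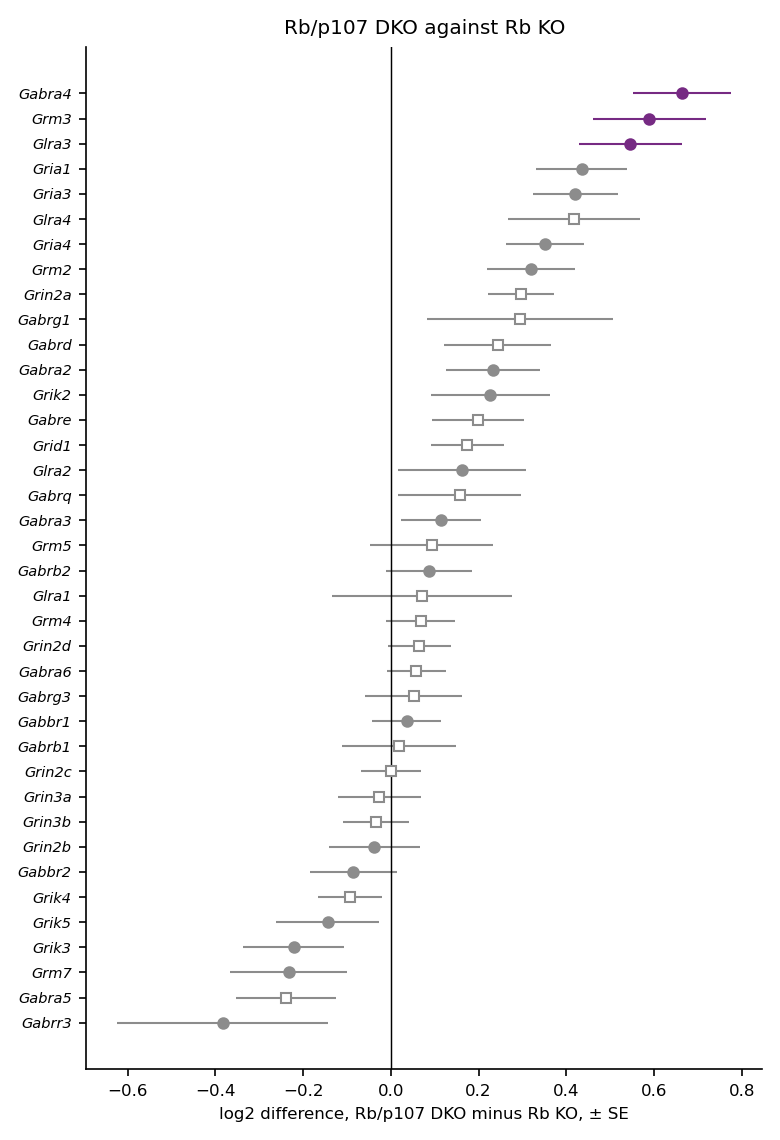
Log2 difference between DKO and Rb KO (x axis, DKO minus Rb KO, ± SE, 3 arrays per group) of the 38 receptor genes in order of size. Purple marks passed the test and open squares had no array above background in these groups. Gabra4, Grm3 and Glra3 passed, and Gria1 and Gria3 lie next to them.

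Auxiliary subunits and scaffolds of glutamate receptors also moved both ways. Of 32 measured of 38 listed, 10 rose and 6 fell in DKO, and 6 rose and 9 fell in Rb KO. Of the 24 above background, 13 were called in DKO (54.2%) and 12 in Rb KO, near the 48.2% and 41.6% of all such genes. Grasp, a scaffold of group I metabotropic receptors, averaged 9.06 in DKO, 8.64 in Rb KO and 7.26 in WT. No WT array was above background, and the bound from group means was 1.88-fold higher in DKO and 1.41-fold higher in Rb KO. The kainate receptor auxiliary subunits went opposite ways: Neto2 rose by 0.74 in DKO (SE 0.091, adjusted p = 1.7e-04) and by 0.67 in Rb KO, and Neto1 fell by 0.50 in DKO (SE 0.169, adjusted p = 0.0462) and by 0.53 in Rb KO (adjusted p = 0.0424). Neto1 was not above background in either mutant. The bound from group means was a 1.02-fold fall in each, on the log2 scale 0.035 in DKO and 0.028 in Rb KO. Both are smaller than the SE of 0.169.

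Shisa6, an AMPA receptor auxiliary subunit, rose by 0.82 in DKO and by 0.64 in Rb KO (SE 0.139 each). The scaffold gene Dlg4, which encodes PSD-95, fell by 0.74 in DKO and by 0.72 in Rb KO (SE 0.093 each). Dlg1, another scaffold of this family, fell by 0.57 in DKO and by 0.51 in Rb KO (SE 0.070 each). Cbln2, a secreted synapse organizer, fell by 0.54 in Rb KO (SE 0.097, adjusted p = 0.00230) and stood at -0.28 in DKO (adjusted p = 0.0528). Dlg2 was the single member of this list called between the mutants (0.41 in DKO against Rb KO, SE 0.094, adjusted p = 0.0493).

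Of 14 measured of 17 listed genes of inhibitory receptor anchoring and trafficking, 1 rose and 5 fell in each mutant. Of the 11 above background, 45.5% were called in DKO and 36.4% in Rb KO, against 48.2% and 41.6% of all such genes. Gabarapl1, a trafficking adaptor of the GABARAP family, fell by 0.82 in DKO and by 0.89 in Rb KO (SE 0.099 each). Nsf, the fusion ATPase that also binds receptor subunits, fell by 0.80 in DKO and by 0.95 in Rb KO (SE 0.124 each). Gphn, which encodes the gephyrin scaffold of glycine and GABA-A receptors, fell by 0.36 in Rb KO (SE 0.096, adjusted p = 0.0182) and stood at -0.21 in DKO (adjusted p = 0.130). Trak1, a kinesin adaptor, fell by 0.48 in DKO and by 0.34 in Rb KO (SE 0.108 each), and Kctd8, a GABA-B receptor auxiliary subunit, rose by 0.33 in DKO (SE 0.107, adjusted p = 0.0386).

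Transmitter synthesis and transport genes were mostly lower: of 14 measured of 22 listed, 9 fell in each mutant, and 1 was called higher in DKO and 0 in Rb KO. Of the 11 above background, 72.7% were called in DKO and 63.6% in Rb KO, against 48.2% and 41.6% of all such genes. Slc17a7, the vesicular glutamate transporter of photoreceptors and bipolar cells, fell 3.25-fold in DKO and 3.02-fold in Rb KO (adjusted p = 4.42e-04 and 8.8e-04). Slc1a7, the glutamate transporter EAAT5 of the same cells, fell by 1.75 in DKO and by 1.13 in Rb KO (SE 0.211 each). Slc17a6, the vesicular transporter of ganglion cells, fell by 1.07 in DKO and by 1.23 in Rb KO (SE 0.249 each). The 1 gene called higher in DKO, Slc1a6, was above background in no array.

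Marker genes of several retinal cell types also differed between the groups, and in bulk tissue fewer cells of a type and less RNA per cell cannot be told apart. Of 13 measured bipolar genes, 12 were lower and 1 higher in DKO, and 11 were lower in Rb KO, and their mean log2 level per array was 7.93 to 8.53 in DKO, 7.96 to 8.61 in Rb KO and 9.33 to 9.46 in WT. Amacrine genes rose in 5 and fell in 4 of 11 cases in DKO, and rose in 5 and fell in 5 in Rb KO. In each mutant 3 of these calls were background readings. The list mean, over members that went both ways, was 8.94 to 9.04, 8.72 to 8.76 and 8.69 to 8.89 in DKO, Rb KO and WT. In this list mean the DKO arrays were all above the Rb KO arrays. Between the mutants 2 of the 11 were called, both higher in DKO, against 2.5% of all genes, and 1 of the 2 was a background reading. Ganglion cell genes fell in 9 of 12 cases in each mutant, at 8.77 to 8.97 in DKO, 8.76 to 9.10 in Rb KO and 9.26 to 9.52 in WT.

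Rod genes fell in 10 of 10 cases in each mutant, with mean levels of 9.58 to 10.45 in DKO, 9.64 to 10.48 in Rb KO and 11.62 to 11.65 in WT. Muller glia genes fell in 4 of 8 cases in each mutant, and rose in 1 in DKO and in 2 in Rb KO. Genes of the cycling progenitor list rose in 9 of 9 cases in DKO and in 8 of 9 in Rb KO. Their mean levels were 9.58 to 9.87 in DKO, 9.17 to 9.56 in Rb KO and 6.66 to 6.79 in WT. Of these calls, 2 in DKO (Birc5 and Fgf15) and 1 in Rb KO (Birc5) were background readings. Most measured members serve cell division in general, so the list does not show that the dividing cells were progenitors. Among defining markers, Nyx (bipolar), Chat and Th (amacrine), Pou4f3 (ganglion) and Lhx1 (horizontal) were above background in no array. Cone genes fell in 7 of 7 cases in DKO and in 5 of 7 in Rb KO, endothelial genes in 7 of 8 and 6 of 8, and pigment epithelium genes in 7 of 8 in each. Microglial genes rose in 5 of 9 cases in DKO and in 6 of 9 in Rb KO. Only 3 of these 9 genes had an array above background, and 3 of the 5 and 4 of the 6 calls were background readings. So were 3 endothelial and 3 pigment epithelium calls in each mutant. Beside these marker counts, 12.2% of all genes were higher and 17.1% lower in DKO, and 10.2% and 14.3% in Rb KO. Gfap, an intermediate filament of astrocytes and reactive Muller glia, was higher in DKO than in Rb KO (0.78, SE 0.161, adjusted p = 0.0298). Only 1 DKO array and no Rb KO array was above background for Gfap. The other 3 of 4 astrocyte genes did not pass between the mutants, and 0 of 8 Muller glia genes did. The lens list averaged 7.55 to 9.01 in DKO, 7.03 to 7.35 in Rb KO and 6.96 to 7.26 in WT. The part of these shifts in the receptor differences was not tested.

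**Figure D4:**
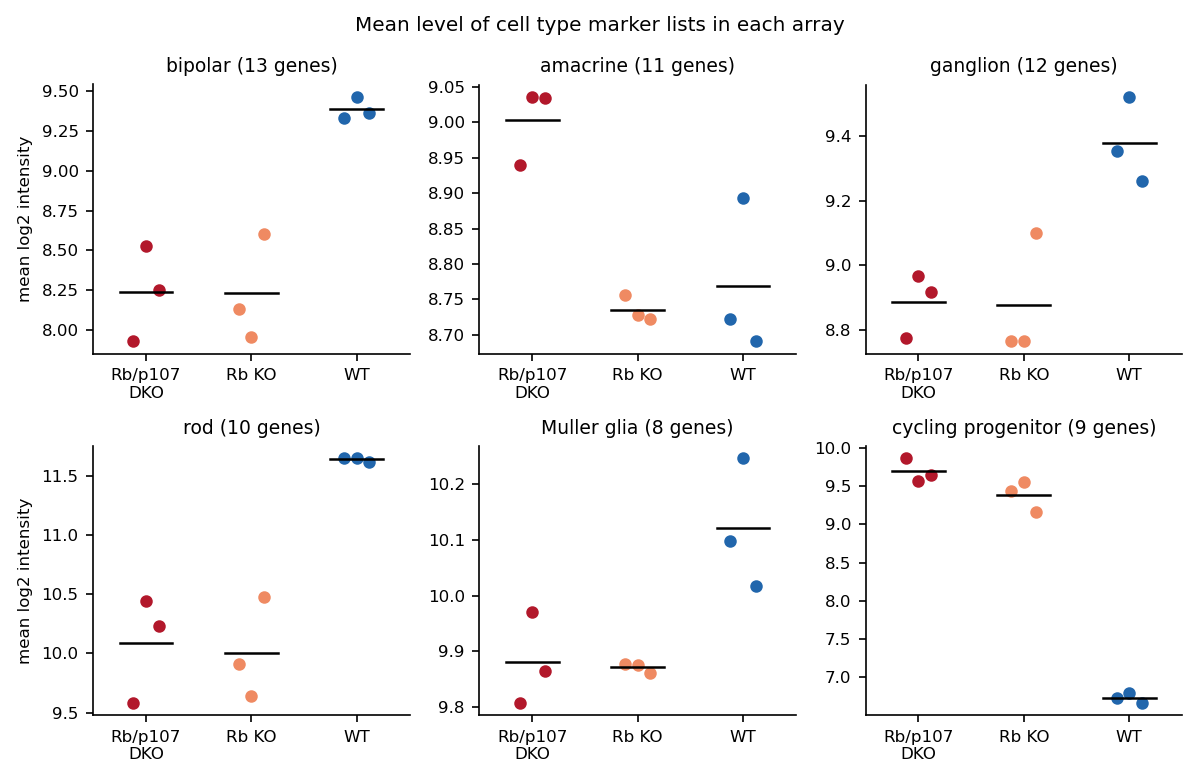
Mean log2 intensity (y axis) of 6 lists of cell type marker genes in each array for DKO, Rb KO and WT, with bars at the group means. Each panel has its own scale. Bipolar, ganglion, rod and Muller glia lists are lower and the cycling progenitor list is higher in all mutant arrays than in all WT arrays, while the amacrine list is highest in DKO.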

How the data were processed

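Per the submitters' processing notes, the deposited values are log2 intensities made by robust multi-array averaging (RMA). Neither software version nor annotation build is stated in the sources used. The table held 59649 probe sets, of which 6732 were controls. Symbols came from the platform annotation: 24646 probe sets had 1 symbol, 1795 had several and 26476 had none listed, and 652 symbols were updated through RefSeq GRCm38.p6. Where a gene had several probe sets, the brightest on average stood for it, and dim genes were kept.

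Groups were compared with limma 3.58.1 under R 4.3.3 on all 9 arrays (6 residual and 4.69 prior degrees of freedom), with Benjamini-Hochberg adjustment over 24259 genes and calls under 0.05. SE is that of a log2 difference, and p-values rest on 3 arrays per group. The fit was checked on simulated data. The 18 alternatives covered normalization, probe set rule, dim genes, variance moderation, a 1.2-fold minimum, groups fitted, a replicate block, control separation (how well positive stand above negative control probe sets) and each array left out. Genes given array by array were the called receptor genes above background and the highest of each class, and from the other lists up to 3 risers and 3 fallers above background. Members and lists were chosen with earlier results of these data known. Sequences are from RefSeq. Python 3.11.15 and matplotlib 3.10.9 drew the figures.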

Additional observations from a re-analysis of the deposited data

How the results depend on the processing

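No receptor call above background changed direction in any of the 18 alternatives. Of 13 such calls in DKO against WT and 10 in Rb KO against WT, 6 and 6 held in every alternative that could be run, and of the 3 between DKO and Rb KO none did. As reported, 18 receptor genes were called in DKO against WT (8 higher, 10 lower), 17 in Rb KO against WT (5 higher, 12 lower), and 3 in DKO against Rb KO (3 higher, 0 lower). With control separation as a covariate 11 were called in DKO against WT (3 lower) and 11 in Rb KO against WT (3 higher). That covariate partly followed genotype, so the 2 cannot be told apart in these counts. With dim genes left out 10 were called in each (5 higher and 5 lower in DKO, 3 higher and 7 lower in Rb KO) and 5 between the mutants (5 higher), with fewer genes tested. Against a 1.2-fold minimum 9 were called in each (3 lower in DKO, 3 higher and 6 lower in Rb KO) and 0 between the mutants. With all probe sets fitted 6 were lower in DKO against WT and 1 was called between the mutants, higher in DKO. Trend and robust moderation gave 6 between the mutants, all higher. Leaving out each array gave 13 to 18 calls in DKO against WT (6 to 9 higher, 6 to 10 lower), 14 to 17 in Rb KO against WT (5 to 7 higher, 9 to 12 lower) and 0 to 6 between the mutants, all higher, with 0 without DKO replicate 3, 1 without DKO replicate 1, Rb KO replicate 1 or WT replicate 1, and 6 without WT replicate 2. In DKO against WT, 6 were lower without DKO replicate 1 or WT replicate 2. The causes were not tested. With the replicate number as a block 18, 15 and 2 were called. Deviations from the group means correlated at -0.162 to 0.145 for same-numbered arrays and at -0.331 to 0.246 for differently numbered ones. With 3 arrays per group these values cannot exclude a pairing, and the labels state none. The test among all 3 groups called 18 receptor genes, 12 to 20 under the alternatives. Quantile normalization gave 16, 17 and 3 calls. Genes near background, such as Gabra4, Grm5 and Grik3 in WT, are limited by their signal.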
